A study of Mus musculus with 7 samples.

Results

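Immediate-early transcription factors are represented here by 10 genes chosen by name, Fos, Fosb, Jun, Junb, Jund, Egr1, Egr2, Egr3, Atf3 and Ier2, out of 19505 named genes on Affymetrix mouse whole-transcript arrays. RNA came from the nucleus pulposus, which is the soft, hydrated centre of an intervertebral disc. The 4 wild-type mice (WT) were 13 months old. The 3 mice with a global deletion of MCT4 (MCT4KO), the lactate exporter encoded by Slc16a3, were 14 months old, so age and genotype cannot be told apart. Per the labels, both groups descend from MCT4+/- breeders backcrossed for 10 generations to C57Bl/6N. The strain is C57BL/6 in every sample label, whereas the series design gives C57Bl/6N for the knockouts. Lumbar and caudal disc tissue of 1 animal was pooled, placed in RNAlater at dissection and run on 1 array. No source used here gives the animals' sex or the time from death to RNAlater.

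Immediate-early genes are transcribed within minutes of a stimulus without needing new protein synthesis, because kinase cascades activate factors such as SRF and CREB that already sit at their promoters. FOS and JUN proteins pair through leucine zippers into AP-1, which binds target promoters, EGR proteins are zinc finger factors, and the mRNAs decay quickly once the stimulus ends. Growth factors, mechanical load, osmotic change and tissue handling are known stimuli.

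The promoters of 3 members are printed because these genes had the pattern used as reference below (Fos), the widest spread between animals (Atf3) and the largest difference of group means (Egr2). Jun is added as a member with no match to the exact motifs searched. Near matches, such as tgacatca in the Jun window, were not counted. RefSeq windows on GRCm38.p6 were searched for 7 of the 10 members, and Egr1, Egr3 and Ier2 were not searched. Any window on the chromosome of Egr1 was left out for members but kept in the shares of all windows. Each sequence is the 250 bases before an annotated start, 5′ to 3′ on the gene's strand, and capitals mark the motif matches described after them.
Fos, chr12:85473640-85473889, plus strand: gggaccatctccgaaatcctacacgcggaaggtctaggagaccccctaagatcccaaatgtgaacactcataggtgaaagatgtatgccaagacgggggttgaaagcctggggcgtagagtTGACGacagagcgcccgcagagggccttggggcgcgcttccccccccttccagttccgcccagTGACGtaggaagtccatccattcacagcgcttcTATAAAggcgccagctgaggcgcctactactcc
Jun, chr4:95052223-95052472, minus strand: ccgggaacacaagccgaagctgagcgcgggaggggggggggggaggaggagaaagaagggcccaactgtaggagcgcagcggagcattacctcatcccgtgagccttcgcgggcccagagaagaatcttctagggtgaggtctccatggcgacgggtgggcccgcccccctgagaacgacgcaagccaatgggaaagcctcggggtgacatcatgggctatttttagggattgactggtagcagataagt
Egr2, chr10:67537619-67537868, plus strand: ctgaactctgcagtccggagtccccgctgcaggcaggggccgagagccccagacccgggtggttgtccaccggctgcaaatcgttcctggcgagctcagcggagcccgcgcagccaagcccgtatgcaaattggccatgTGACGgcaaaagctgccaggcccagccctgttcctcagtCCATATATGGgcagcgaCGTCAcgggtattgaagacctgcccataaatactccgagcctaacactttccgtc
Atf3, chr1:191183334-191183583, minus strand: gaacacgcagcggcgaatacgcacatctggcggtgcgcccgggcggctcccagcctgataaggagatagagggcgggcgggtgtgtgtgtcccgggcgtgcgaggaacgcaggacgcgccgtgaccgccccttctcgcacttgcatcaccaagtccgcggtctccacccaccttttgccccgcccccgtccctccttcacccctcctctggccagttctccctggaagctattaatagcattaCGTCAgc

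Matches to TGACG, the core of the cyclic AMP response element (searched on both strands and contained in the full element), lay 129 and 66 bases before the Fos start, 111 and 55 bases before this Egr2 start and 7 bases before the Atf3 start. Fosb and Junb windows also held this core, so 5 of the 7 members held it in at least 1 of their windows, 11 windows in all. Counted per window and not per gene, 17.8% of the 32841 windows in the table held it. The Egr2 window held 1 CArG box, the site of SRF, starting 72 bases before the start and not overlapping the TGACG matches. A CArG box was found in 1.47% of all windows, on either strand. Fos had TATAAA on its own strand 33 bases before the start, a sequence present in 7.59% of windows. GCGNGGGCG, an EGR site searched on both strands, was in the Fosb window and in 4.7% of all windows. None of the 7 members had the full element TGACGTCA or the AP-1 site TGANTCA in these bases, on either strand, and these were found in 1.55% and 6.75% of all windows. A match is a sequence description and not a measured binding site.

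The genotype labels were checked on Slc16a3, whose log2 mean fell from 13.48 ± 0.124 (SD, n = 4) in WT to 4.82 ± 0.306 (SD, n = 3) in MCT4KO, at least 179.9-fold against the control median (limma adjusted p = 6.7e-09; exact two-sided permutation p = 0.0286, which is as low as 35 splits can give). All values are on the deposited log2 scale, on which negative control probes had array medians of 5.91 to 6.08. The highest value, 19.41, exceeds the log2 of the brightest reading a scanner can record, and fold changes therefore hold on that scale only. Keratins Krt8 and Krt19 and the surface marker Cd24a, which mark nucleus pulposus cells, read between 16.52 and 17.70 on every array, and 8 of 11 measured nucleus pulposus markers lay above the control median on all arrays. Car12 and Basp1, also on that list, were at background in both groups. Endothelial markers were at background in both groups for 6 of 7 genes, osteoblast and osteocyte markers for 5 of 6, macrophage markers for 4 of 8, skeletal muscle markers for 2 of 9 and tendon and annulus fibrosus markers for 1 of 7. In bulk tissue, fewer cells of a type and less RNA per cell cannot be told apart.

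All 10 members, each in its feature of highest mean, read above the control median on every array. For Egr3 another feature lay below that median on every array. None of the members passed the genotype test, and none had groups that did not overlap. Of the 10, 0 were called at a limma adjusted p under 0.05 against 0.59% of all genes (0.118% higher and 0.472% lower in MCT4KO). Likewise 0 members had an unadjusted p under 0.05, against 12.7% of all genes (5.76% higher and 6.9% lower). Non-overlapping groups were seen in 12% of all genes. Log2 changes, MCT4KO minus WT, ran from -1.08 for Egr2 to 0.72 for Jund, with a median of 0.33 over the members and 0.02 over all genes. Of the members 8 were above 0, as were 53% of all genes. That lean depended on single animals: without WT 1 the median was -0.13 and 3 of 10 members were above 0, and without MCT4KO 2 the median was -0.02.

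The feature that stood out was the distance between animals of the same genotype. WT 1 read lowest of the WT animals and MCT4KO 1 lowest of the MCT4KO animals in the same 9 of 10 members, Egr3 being the exception. Over all genes this pair was lowest together in 7.81%, within the range of 7.18% to 11.3% for the 12 possible pairs. Among the 9837 genes above the control median on every array the figure was 10.0%. In these genes MCT4KO 1 taken alone was lowest of its group in 46.6%, against 28.3% for MCT4KO 2 and 25.1% for MCT4KO 3. WT 1 taken alone was lowest of WT in 25.7%. The labels attach no batch, litter or day to the animal number.

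**Figure D1:**
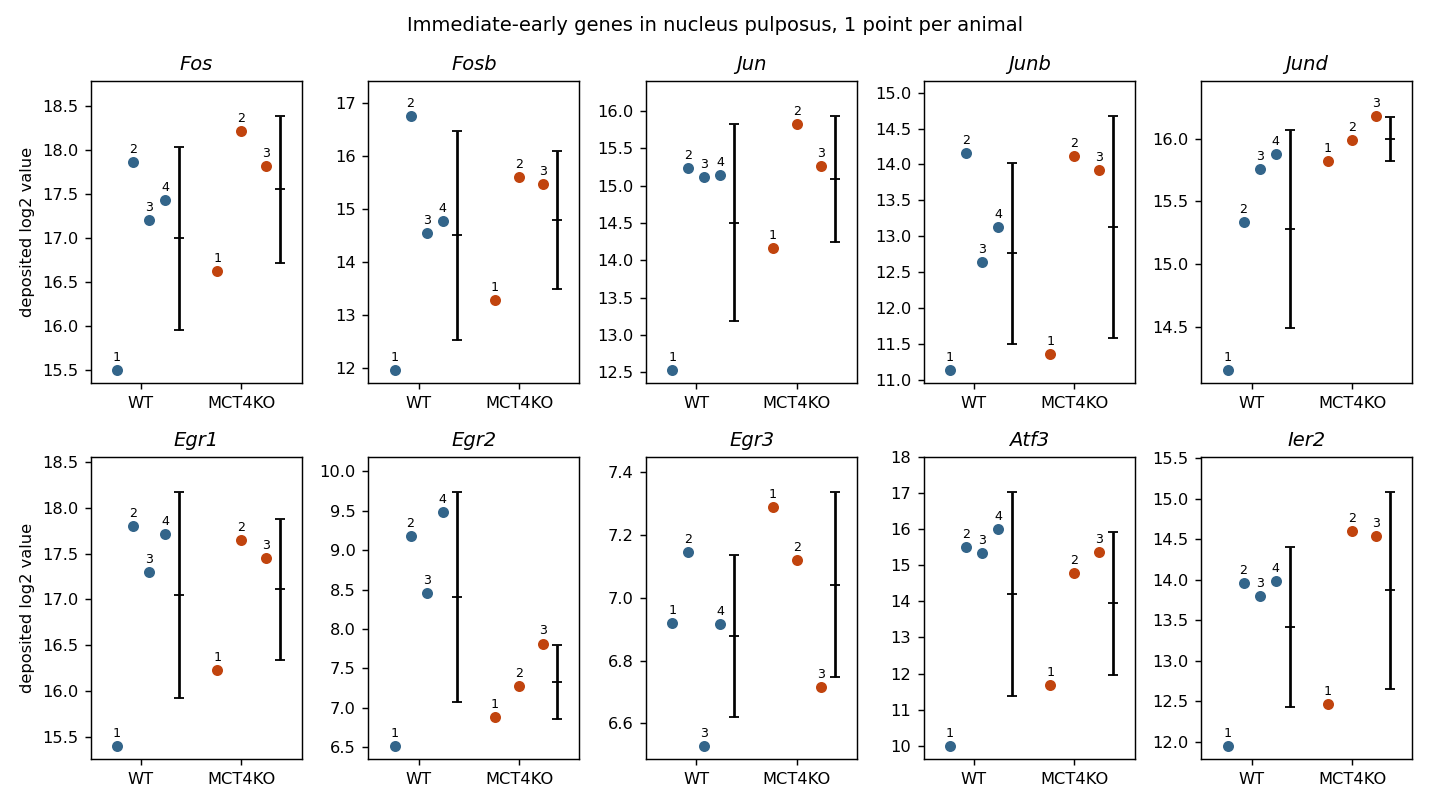
Deposited log2 value (vertical axis, separate scale per gene) of each immediate-early gene in WT (blue) and MCT4KO (orange) animals; numbers name the animal and the bar beside each group is mean ± SD (n = 4 and 3). Animal 1 is the lowest point of both groups in every panel except Egr3, and the groups overlap in all 10 panels.

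Fos encodes the inducible partner of JUN in AP-1. On the log2 scale Fos read 15.50, 17.86, 17.20 and 17.43 across WT 1 to 4, against 16.62, 18.21 and 17.81 across MCT4KO 1 to 3. The animals numbered 1 were the lowest of each group, and MCT4KO 1 lay below WT 2, 3 and 4. The group means were 17.00 ± 1.04 (SD, n = 4) and 17.55 ± 0.83 (SD, n = 3), a change of 0.55 ± 0.539 (SE; limma adjusted p = 0.70) with a 95% interval of -0.65 to 1.76. Without WT 1 the change was 0.05, and without MCT4KO 1 it was 1.02.

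Fosb encodes a FOS relative whose truncated splice form persists after repeated stimulation. On the log2 scale Fosb read 11.95, 16.75, 14.55 and 14.76 across WT 1 to 4, against 13.29, 15.61 and 15.47 across MCT4KO 1 to 3. WT 2 and WT 1 thus held the highest and the lowest value of all 7 animals, with every MCT4KO value between them. The change was 0.28 ± 0.959 (SE; limma adjusted p = 0.93).

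Jun encodes the main activating JUN protein. It read 12.53, 15.23, 15.12 and 15.14 across WT 1 to 4, against 14.17, 15.83 and 15.26 across MCT4KO 1 to 3. WT 2, 3 and 4 lay close together, at 15.12 to 15.23, while WT 1 stood below them and below every MCT4KO animal. The change was 0.58 ± 0.645 (SE; limma adjusted p = 0.74), and -0.081 without WT 1.

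Junb encodes a JUN protein that often restrains JUN activity. It read 11.13, 14.15, 12.64 and 13.13 across WT 1 to 4, against 11.36, 14.12 and 13.92 across MCT4KO 1 to 3. The 2 animals numbered 1 were close to each other and below the other 5. Its change was 0.37 ± 0.766 (SE; limma adjusted p = 0.87), and -0.18 without WT 1.

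Jund encodes the JUN protein that is present constitutively in most cells. It read 14.15, 15.33, 15.76 and 15.87 across WT 1 to 4, against 15.82, 15.99 and 16.18 across MCT4KO 1 to 3. This was the member with the smallest p and the nearest to separate groups: of the WT animals, WT 4 alone reached above the lowest MCT4KO value. Means were 15.28 ± 0.79 (SD, n = 4) and 16.00 ± 0.18 (SD, n = 3), a change of 0.72 ± 0.360 (SE; limma adjusted p = 0.45) with a 95% interval of -0.09 to 1.52. Without WT 1 the change was 0.34.

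Egr1 encodes a zinc finger factor induced by growth factors and mechanical strain. It read 15.40, 17.80, 17.30 and 17.71 across WT 1 to 4, against 16.23, 17.65 and 17.45 across MCT4KO 1 to 3. The group means lay 0.06 ± 0.560 (SE) apart (limma adjusted p = 0.97), with a 95% interval of -1.20 to 1.31 that includes changes of 1 log2 unit in both directions. Leaving out 1 animal gave changes of -0.49 to 0.50.

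Egr2, best known for its role in Schwann cell myelination, was the member whose mean was furthest below WT. It read 6.51, 9.18, 8.45 and 9.48 across WT 1 to 4, against 6.88, 7.28 and 7.82 across MCT4KO 1 to 3. All MCT4KO animals lay below WT 2, 3 and 4, but WT 1 was the lowest of all 7. Means were 8.41 ± 1.33 (SD, n = 4) and 7.33 ± 0.47 (SD, n = 3), a change of -1.08 ± 0.601 (SE; limma adjusted p = 0.48). Without WT 1 the change was -1.71 and the limma adjusted p was 0.077, the lowest of any member in any alternative run.

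Egr3, a related factor with a role in muscle spindles, was the member that did not share the pattern. It read 6.92, 7.15, 6.53 and 6.92 across WT 1 to 4, against 7.29, 7.12 and 6.72 across MCT4KO 1 to 3, so WT 3 and MCT4KO 3 were lowest and MCT4KO 1 was highest. Its change was 0.16 ± 0.189 (SE; limma adjusted p = 0.75). The array has 3 features for Egr3, and they differed in sign. The first, whose values are given here, and the second carry unmapped labels. The second had a change of -0.35, with WT 1 lowest of WT but MCT4KO 1 highest of its group. The third, at 3.30 to 3.79, lay below the control median on every array. Egr3 values are therefore uncertain.

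Atf3 encodes a stress-induced factor of the ATF/CREB family that can pair with JUN. It read 9.99, 15.49, 15.33 and 16.01 across WT 1 to 4, against 11.68, 14.79 and 15.37 across MCT4KO 1 to 3. Within WT the span was 6.02 log2 units and within MCT4KO 3.69, while the group means differed by -0.26 ± 1.39 (SE; limma adjusted p = 0.95). The change was -1.66 without WT 1 and 0.88 without MCT4KO 1.

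Ier2, a nuclear protein of the early response, read 11.95, 13.96, 13.80 and 13.99 across WT 1 to 4, against 12.47, 14.61 and 14.54 across MCT4KO 1 to 3. MCT4KO 2 and 3 lay above every WT animal, and MCT4KO 1 lay below WT 2, 3 and 4. The change was 0.45 ± 0.606 (SE; limma adjusted p = 0.79), and -0.044 without WT 1.

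**Figure D2:**
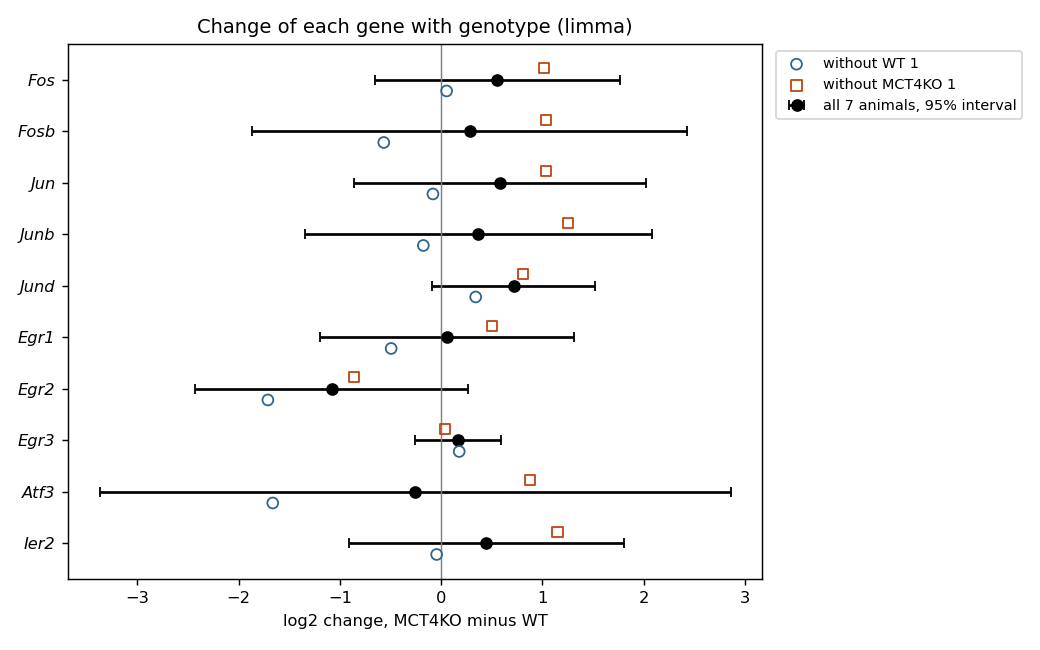
Log2 change of each immediate-early gene, MCT4KO minus WT (horizontal axis), from limma with all 7 animals (black, with 95% interval), without WT 1 (blue circles) and without MCT4KO 1 (orange squares). Every interval with all 7 animals spans 0, and Fosb, Jun, Junb, Egr1 and Ier2 change sign without WT 1.

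The spread between animals was measured for each gene as the residual SD around its genotype mean, with 5 degrees of freedom. It was 0.222 for the median gene, and 0.394 and 0.760 at the 90th and 99th percentiles of all genes. Of the 10 members 8 were above the 99th percentile and 9 above the 90th. Atf3 had the largest, 2.52, rank 6 of 19505 genes. Fosb followed at 1.73 (rank 31), Junb at 1.38 (rank 57) and Jun at 1.15 (rank 75). Ier2, Egr2, Egr1 and Fos lay between 0.959 and 1.08, and Jund at 0.621 (rank 350). Egr3 had 0.273, rank 6376. Wide spread was not particular to the members, whose median was 1.08. Of the gene lists described here, cartilage end plate markers had a median of 1.59 and neutrophil and myeloid marrow markers 1.38. Every other list had a lower median than the members, with 0.833 for other immediate-early factors and 0.659 for feedback regulators. The standard errors of the members' changes, 0.189 to 1.39, compare with 0.167 for the median gene, so the genotype test was less precise for each member than for the median gene.

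**Figure D3:**
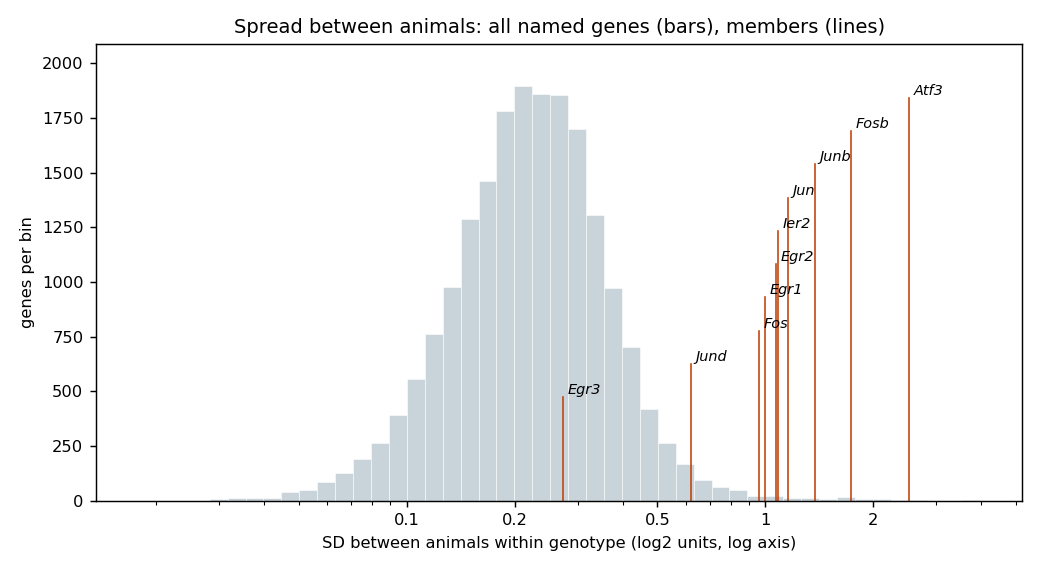
Number of genes (vertical axis) by SD between animals of the same genotype (horizontal, log axis) for all 19505 named genes (bars), with the 10 immediate-early genes as lines whose height has no meaning. Egr3 lies inside the bulk at 0.273, Jund at 0.621 in the upper tail, and the other 8 between 0.959 and 2.52.

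Members also followed each other from animal to animal. Pearson's r with Fos over the 7 arrays was 0.976 for Jun, 0.955 for Ier2, 0.947 for Egr1, 0.941 for Junb, 0.939 for Fosb and 0.879 for Atf3, and lower for Jund (0.786), Egr2 (0.55) and Egr3 (0.0035). These values describe 7 arrays and rest in part on WT 1 and MCT4KO 1, the animals furthest from the Fos median. Without them r was 0.935 for Junb, 0.840 for Jun, 0.804 for Ier2, 0.676 for Fosb and 0.499 for Egr1, but 0.132 for Jund, -0.58 for Egr2 and -0.62 for Atf3. Egr3 had 0.747 over these 5.

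The 9403 candidates for likeness to Fos lay above the control median on every array and left out the members. Symbol patterns removed predicted genes, clones with Rik in the symbol and small RNAs. These patterns also removed ordinary genes whose symbols start with Rn, or with B and a digit. Of the candidates, the 5 most like Fos by Pearson's r were Klf4 (0.985), Zfp36 (0.979), Lmna (0.974), Nfkbiz (0.971) and Klf2 (0.967). Klf4 and Klf2 are Krüppel-like factors, Zfp36 is an mRNA decay factor, Nfkbiz is a nuclear regulator of NF-kB and Lmna encodes nuclear lamins A and C. Klf4 ordered the 7 animals exactly as Fos did (Spearman's rho = 1). Without WT 1 and MCT4KO 1 their r was 0.975, 0.885, 0.824, 0.754 and 0.808. They were picked as the highest of many, so these values carry no test.

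Related genes were read from 6 lists. Of 94 measured genes on them, 0 were called over all genes tested (limma), and 10 had an unadjusted p under 0.05. Over all genes the shares were 0.59% and 12.7%. Other immediate-early factors, 16 of 16 measured, had a median change of -0.25 with 3 members above 0. The 4 with the smallest p were the orphan nuclear receptors Nr4a2 (-2.06 ± 0.588, SE; adjusted p = 0.19) and Nr4a3 (-1.02; adjusted p = 0.29), Ets2 (-0.79; adjusted p = 0.29), an ETS factor, and Myc (-0.89; adjusted p = 0.57), the growth regulator. Nr4a3 was at background in all 3 MCT4KO animals and in 2 WT animals, and its change was -0.28 with values raised to the control median. Myc was -0.30 without WT 2. Nr4a2 read 7.79, 9.71, 9.41 and 10.64 across WT 1 to 4, against 7.92, 6.42 and 7.64 across MCT4KO 1 to 3, so WT 1 lay among the MCT4KO values. WT 1 and MCT4KO 1 were both lowest of their groups in 9 of these 16 genes. The share was 7.81% of all genes and 10.0% of those above the control median on every array. Csrnp1, a nuclear protein of the early response singled out after its values were seen, read 7.10 in WT 1, far under the 12.73 to 13.99 of WT 2, 3 and 4.

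Feedback regulators, which switch the response off through phosphatases, mRNA decay and receptor inhibition, had a median of -0.03 over 20 of 20 genes, with 8 above 0. Spry4 (0.48; adjusted p = 0.36) and Spry2 (-0.29; adjusted p = 0.56), inhibitors of receptor tyrosine kinase signalling, Gadd45b (-0.83; adjusted p = 0.42), a stress response gene, and Dusp5 (-0.89; adjusted p = 0.45), a nuclear ERK phosphatase, had the smallest p. Spry4 lay below the control median on every array, so its change gives no size, and Spry2 did so on 3 of 7. Dusp5 read 8.54, 10.67, 10.16 and 10.66 across WT 1 to 4, against 8.92, 8.95 and 9.47 across MCT4KO 1 to 3. Dusp5 passed when WT 1 was left out (-1.38; limma adjusted p = 0.044) and in no other alternative. In 9 of the 20 genes WT 1 and MCT4KO 1 were both lowest, against 7.81% of all genes.

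Among upstream factors and kinases, 16 of 20 measured, the median change was -0.12 and 3 were above 0. Elk3, a ternary complex factor that partners SRF, read 8.96 to 9.90 in WT and 10.25 to 11.27 in MCT4KO, groups that did not overlap (1.13 ± 0.290, SE; limma adjusted p = 0.15). Crtc1, a CREB coactivator (-0.55; adjusted p = 0.30), Creb1 itself (-0.45; adjusted p = 0.38) and Srf (-0.58; adjusted p = 0.55) followed. Groups did not overlap in 2 of the 16 genes, Elk3 and Crtc1, against 12% of all genes. The residual SD of this list had a median of 0.236, close to that of all genes, and WT 1 and MCT4KO 1 were both lowest in 2 of 16.

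Other AP-1 family subunits, 11 of 13 measured, had a median of 0.04 and 8 above 0. The smallest p belonged to Atf2 (0.15; adjusted p = 0.70), the small Maf proteins Maff (-0.48; adjusted p = 0.72) and Mafk (-0.45; adjusted p = 0.72), and Batf3 (0.11; adjusted p = 0.81), which read below background on every array. Maff was at background in 3 of 7 animals, and its difference was -0.13 without WT 2. Genes known as AP-1, EGR or SRF targets, 20 of 23 measured, had a median of -0.04 and 9 above 0. The protease inhibitor Timp1 (0.93; adjusted p = 0.32), the hyaluronan receptor Cd44 (0.40; adjusted p = 0.39), the cytokine Il6 (-0.47; adjusted p = 0.45) and the haem-degrading enzyme Hmox1 (-0.47; adjusted p = 0.48) had the smallest p, and Il6 was at background in all animals. Hmox1 was -0.10 without MCT4KO 1. WT 1 and MCT4KO 1 were both lowest in 2 of the 11 and 2 of the 20 genes.

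Heat shock genes, which encode chaperones induced by protein-damaging stress, shared the lowest animal of each group with the members. The order of the other animals differed. The heat shock list mean was highest in WT 4 and MCT4KO 3 of their groups, and the member mean in WT 2 and MCT4KO 2. WT 1 and MCT4KO 1 were both lowest in 10 of 11 measured genes, against 10.0% of genes above the control median on every array. The list had a median change of -0.11 with 4 above 0. The chaperones Hspa1b (1.04 ± 0.424, SE; limma adjusted p = 0.35) and Hspa1a (0.94; adjusted p = 0.49), near-identical copies whose separate values are uncertain, stood above WT on average. The co-chaperones Bag3 (-0.60; adjusted p = 0.42) and Dnajb4 (-0.56; adjusted p = 0.43) stood below. Hspa1a read 11.01, 12.81, 12.76 and 12.64 across WT 1 to 4, against 12.05, 13.97 and 13.71 across MCT4KO 1 to 3.

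The mean over the 10 members was 11.60, 14.29, 13.67 and 14.04 across WT 1 to 4, against 12.58, 14.12 and 14.05 across MCT4KO 1 to 3. Neutrophil and myeloid marrow markers, 11 of 12 measured, had list means of 5.92 to 9.89 in WT and 5.12 to 5.74 in MCT4KO. Erythroid markers, 2 of 8 measured, had list means of 6.68 to 8.64 in WT, highest in WT 2, and 6.67 to 6.76 in MCT4KO. In 4 of the 11 neutrophil genes the groups did not overlap, against 12% of all genes, and 0 were called (limma; 4 had an unadjusted p under 0.05), against 0.59% of all genes. Of these 4, S100a8, Ngp and Retnlg were at background in all 3 MCT4KO animals and S100a9 in 2, so the size of their differences is uncertain. Neutrophil marker means were highest in WT 2 (9.89), then WT 1 (7.65), which were the animals with the highest and the lowest member mean among WT. Cartilage end plate markers, 7 of 7 measured, ran from 6.69 in WT 1 to 7.49 in WT 2, and read 8.95, 6.82 and 5.91 in MCT4KO 1 to 3. MCT4KO 1, lowest for 9 members, was thus highest for that list, whereas WT 1 was lowest for both. Macrophage marker means ran from 6.10 to 6.78 in WT and 5.94 to 6.10 in MCT4KO. Their part in the members' values was not tested.

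**Figure D4:**
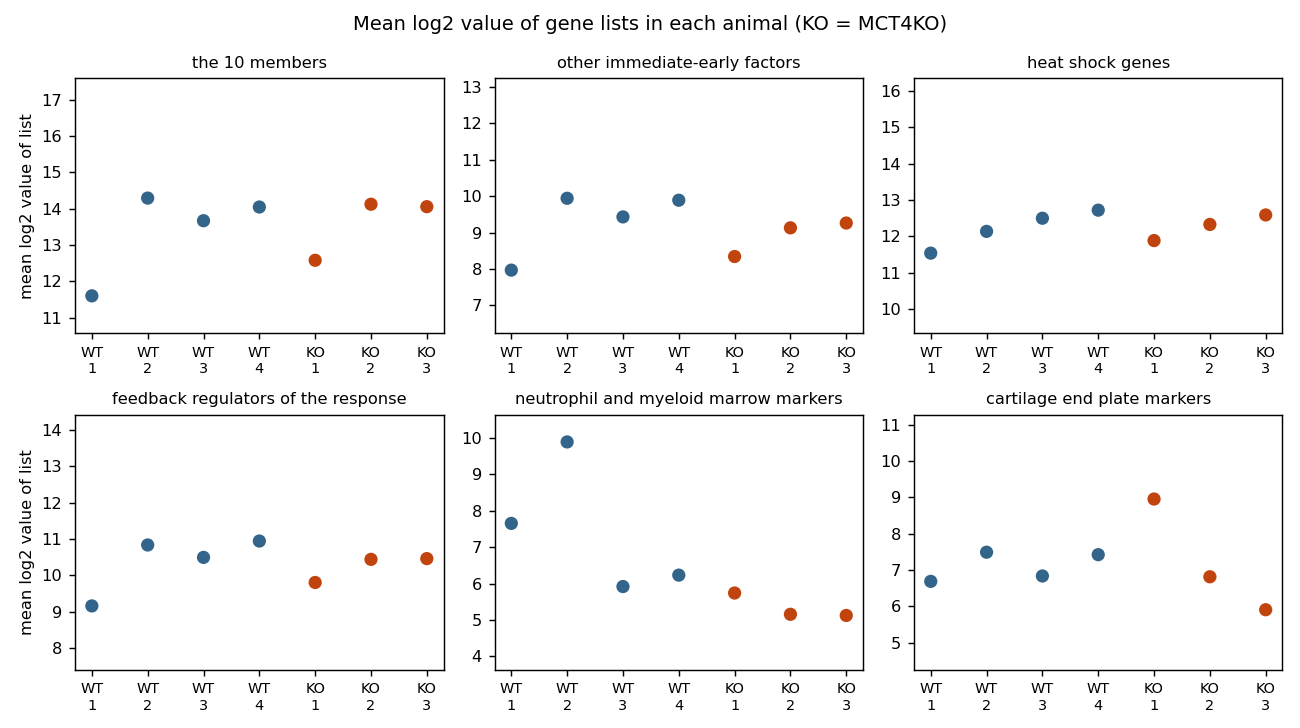
Mean log2 value (vertical axis, equal length of scale in all panels) of the 10 immediate-early genes and of 5 gene lists in each of the 7 animals (WT blue, MCT4KO orange). WT 1 and MCT4KO 1 are the lowest of their groups for the 10 genes, other immediate-early factors, heat shock genes and feedback regulators, while neutrophil markers peak in WT 2 and end plate markers in MCT4KO 1.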

How the data were processed

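RNA of 7 animals was measured on 1 array each. The authors deposited 1 log2 value per feature and array (a scale inferred from the range of the values), and the submitters' processing notes name Expression Console 1.4.1 from Affymetrix. No source used here names the background correction, normalization or annotation build. Of 22206 transcript clusters, 19572 had 1 gene symbol, 0 several and 2634 none. Symbols were updated by gene identifier from RefSeq (GRCm38.p6). The feature with the highest mean stood for a gene. A gene was at background where a value was at or below the array's median of 5222 negative controls.

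MCT4KO was compared with WT by limma 3.58.1 in R 4.3.3 over all 19505 genes, without covariates (5 residual and 4.66 prior degrees of freedom), two-sided, with Benjamini-Hochberg adjustment over all genes, and called at an adjusted p under 0.05. The fit was tested on simulated data. The number of arrays limits precision.

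Members and lists were chosen with earlier results of these data known. Named genes were the members, Slc16a3, any called gene and the 4 smallest p-values of each related list, and the 5 non-members most like Fos. Alternatives covered scaling, filter, features, variance model, array weights, a floor at background, the replicate number as a block, and leaving out animals. Removing WT 1 with MCT4KO 1 was added after seeing the data. Genes without a value here were not analysed here.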

Additional observations from a re-analysis of the deposited data

Results flagged for a closer look

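In 6 of 40 genes checked, the WT animal furthest from the others stood apart by more than Dixon's 95% limit for 4 samples, and in all 6 that animal was WT 1. The 40 genes were not chosen independently of this pattern: 5 were picked as most like Fos, Klf2 among them. Chance puts about 1 group in 20 past that limit, and 7.69% of all 19505 genes were past it in WT. For Jun, WT 1 read 12.53 against 15.12 to 15.23 in the other WT animals. For Atf3 it read 9.99 against 15.33 to 16.01, and for Ier2 11.95 against 13.80 to 13.99. Of genes outside the 10 members, Klf2 read 10.53 against 13.01 to 13.27, Hspa1a 11.01 against 12.64 to 12.81, and Ets2 6.75 against 7.50 to 7.64. The MCT4KO group, with 3 animals, was not checked in this way.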

How the results depend on the processing

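No member was called under any of 17 alternatives, and Slc16a3 kept its direction and call in all of them. The labels give the replicate number no meaning, and it was not taken to pair the animals: over 9837 genes the deviations of WT and MCT4KO animals with the same number correlated at -0.12, 0.05 and 0.12. Over the 10 members alone they correlated at 0.81, 0.67 and 0.58, and WT 1, 2 and 3 each correlated best with its own number, but MCT4KO 3 did so with WT 4. With the replicate block 0 members were called and 4 (Ier2, Jund, Fos and Jun) had an unadjusted limma p under 0.05, and 6 genes were called in all against 115 without it. WT 4 has no partner, so the block also takes it out of the comparison: its estimates equal those without WT 4, Atf3 turning to 0.35 in both, and without WT 4 alone 25 genes were called. All genes called came to 26 with values raised to the control median, 16 without WT 1 and WT 2, 40 without WT 1 and MCT4KO 1, and 15 to 64 when 1 animal was left out, each of the 7 lowering it over 1.5 times. Related genes called were 0 to 1 when 1 animal was left out. The cause was not tested. Directions turned for Egr3 with features averaged (-0.17) and for Batf3 and Spry4, both at background, with values raised to the control median (-0.0079, the difference of the groups' control medians). Without WT 1 and WT 2, Jun was -0.047, Egr1 -0.39 and Ier2 -0.023, and without WT 1 and MCT4KO 1, Egr1 was -0.053. Leaving out 1 animal gave -0.57 to 1.04 for Fosb, -0.081 to 1.04 for Jun, -0.18 to 1.26 for Junb, -0.49 to 0.50 for Egr1, -1.66 to 0.88 for Atf3, -0.044 to 1.15 for Ier2 and -0.13 to 0.95 for the members' median. Fos, Jund and Egr2 kept their direction under all 17.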
